A study of Drosophila melanogaster with 2 samples.

Results

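Chromatin immunoprecipitation followed by sequencing (ChIP-seq) had mapped the binding of the Drosophila melanogaster protein CG43347, and the sites described here are those that lay between genes and away from transcription start sites (TSSs). The protein carried green fluorescent protein (GFP) at its C-terminus in a stable transgenic line. The labels give the strain as CG9817, with an insertion targeting CG43347. An antibody to GFP was used on whole embryos aged 10 to 24 h. The samples were biological replicates 1 and 3 of this 1 group, so no treatments or genotypes were compared. All values come from flies that carry the transgene, and the promoter that drives it is not given in the sources used here. Summits were taken from the peak list that the authors had filtered by IDR (irreproducible discovery rate), a measure of how well the ranks of peaks agree between replicates. A summit, the base at which the authors placed the top of a peak, was kept if it lay outside every annotated gene and more than 500 bp from the nearest TSS of any gene. This left 592 summits, called members below, against 4446 others, or 11.8% of the list. The others comprised 2626 summits within 500 bp of a TSS, 1707 in introns and 113 in exons. All these classes were chosen by position alone.

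Sequence between genes holds enhancers, which raise the transcription of genes at a distance, and insulators and other architectural sites, which separate or connect regulatory domains. Unannotated promoters also fall there. In the compact fly genome such sites often lie within a few kilobases of a gene. A ChIP-seq peak gives the place where the tagged protein, or a complex that holds it, was crosslinked to DNA, and does not name the gene on which the site acts.

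A short word, CAGTGTA on either strand, was the sequence most enriched at member summits. It was present in windows of about 200 bp around 66 of the 592 summits. The stretches that follow are from the 6 strongest of these members for which sequence is printed, each read 5′ to 3′ along the strand that carries CAGTGTA (RefSeq, release 6 assembly, dm6). Capitals mark that 7-mer and, where it is present, the triplet TTT that begins 7 bases before it. They are shown to place the word in its sequence, and they vary. The triplet stands in 3 of the 6, and in 4 of the 6 the 27 bases before the word are richer in A and T than the 27 after it. In the stretches near CG17896 and Cpr76Ba the side after the word is the richer, and there the summit lies on the 3′ side of the word, unlike at most members.
CG17896 (X:493917-493977, plus strand): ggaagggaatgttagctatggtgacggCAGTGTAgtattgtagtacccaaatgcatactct
CG43245 (3L:10752857-10752917, plus strand): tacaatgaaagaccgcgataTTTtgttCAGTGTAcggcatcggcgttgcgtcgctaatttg
Cpr76Ba (3L:19516782-19516842, minus strand): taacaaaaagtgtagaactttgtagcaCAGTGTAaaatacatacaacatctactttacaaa
lncRNA:CR42794 (X:5696563-5696623, plus strand): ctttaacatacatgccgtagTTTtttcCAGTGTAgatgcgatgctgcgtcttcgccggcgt
slp2 (2L:3832559-3832619, plus strand): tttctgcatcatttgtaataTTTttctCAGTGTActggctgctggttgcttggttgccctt
lncRNA:CR45303 (2L:14502675-14502735, minus strand): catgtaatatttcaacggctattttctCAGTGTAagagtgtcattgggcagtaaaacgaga

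The strongest member of all lacks that word, and is shown for contrast with the capitals marking GGCGCCA read on both strands, a word found at 4.05% of member summits and 0.845% of their flanks. Each name here is that of the gene with the nearest TSS. All the stretches above and the window that follows lie in intergenic sequence by the annotation used.
sp3 (3R:21520280-21520480, plus strand): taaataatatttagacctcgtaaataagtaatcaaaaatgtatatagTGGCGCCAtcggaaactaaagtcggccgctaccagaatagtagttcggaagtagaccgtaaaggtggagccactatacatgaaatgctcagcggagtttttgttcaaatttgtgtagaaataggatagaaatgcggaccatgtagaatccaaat

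CAGTGTA was several times more frequent at member summits than beside them. It was present in 11.1% of the windows at member summits (95% Wilson interval 8.86 to 13.9) and in 1.69% of windows centred 600 bp away on the lower-coordinate side. On the other side the share was 1.52%. Of the members with the word in only 1 of the paired windows, 64 had it at the summit and 8 in the lower flank (exact two-sided sign test, Benjamini-Hochberg adjusted over 34 sequences, p = 1.96e-10). Over windows of the same length tiled across all sequence that meets the rule, 1.89% of 179731 windows held it. Among all summits of the list 6.91% did. The 7-mers tested were the 10 with the largest ratio of summit to flank in the peaks that are not members. The choice of these 10 thus did not use the members. CAGTGTA was then taken from them as the 7-mer with the lowest sign-test p in the members. In the peaks that are not members its ratio was 4.34, below ACTATCG at 6.84 and CTATCGA at 5.11.

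Of the other 33 sequences, 4 were also past the threshold against the lower flank, all in the direction of the summit. TATAAA, the TATA box of core promoters, was at 37.7% of summits and 22.0% of flanks (exact sign test, adjusted p = 4.11e-07). TAATATA was at 14.9% against 7.60% (exact sign test, adjusted p = 0.00131). AGTGTAG, which overlaps CAGTGTA by 6 bases, was at 5.91% against 1.86% (exact sign test, adjusted p = 0.00330). TGCATA, part of the site of the insulator protein Su(Hw), was at 20.6% against 13% (exact sign test, adjusted p = 0.00605), and it missed the threshold under 5 of the alternatives listed in the closing section. TATAAA and TAATATA hold only A and T, and the base composition moved with them. The median G and C content was 34.3% at member summits and 41.8% in the lower flanks, and it was lower at the summit in 422 of 592 members (71.3%). The same was so for 73.5% of intronic summits and 81.9% of summits near TSSs, so it is not particular to the members. The part of base composition in those differences was not tested.

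Apart from TATAAA and TGCATA, the words tested from known fly regulatory sites were not past the threshold against the lower flank. GAGAG, bound by GAGA factor, was at 20.4% of summits and 22.6% of lower flanks, and GCCAT, the core of the Polycomb recruiter Pleiohomeotic, was at 27.4% and 34.5% (exact sign test, adjusted p = 0.0705). AGATAA, bound by GATA factors, was at 13.5% and 10.1%, and the homeodomain word TAATTA at 17.2% and 13% (exact sign tests, adjusted p = 0.195 and 0.162). The early activator Zelda's word CAGGTAG was at 1.52% and 1.01%. These absences of a call do not show that the shares are equal.

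The word lay beside the summit rather than on it. Over the 66 members the nearest CAGTGTA was at a median distance of 68.5 bp from the summit, with quartiles of 49.3 and 82.3 bp. In 48 of them it was more than 50 bp away, and in 3 it was within 25 bp. By bins of about 100 bp, it was present at 2.53% of members in the bin on the summit, at 7.77% in the bin 100 bp to the lower-coordinate side and at 6.76% in the bin 100 bp to the other side. From 200 bp outwards the bins held between 0.338% and 1.52%. The same valley at the summit was seen at intronic summits, with 5.51%, 1.99% and 5.21% in the same 3 bins.

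The offset had a direction set by the strand of the word. Read along the strand of CAGTGTA, the summit was on the 5′ side of 65 of the 70 occurrences (92.9%, 95% Wilson interval 84.3 to 96.9), and on the 3′ side of 5. The 5′ side is the side of the triplet TTT. In intronic peaks, which share no peak with the members, the summit was on the 5′ side of 149 of 166 occurrences (89.8%, 84.2 to 93.5), and near TSSs at 102 of 127 (80.3%, 72.6 to 86.3). Both replicates' own lists gave the same side. In a list of the strongest peaks of replicate 1, as long as the IDR-filtered list, the rule kept 552, and the summit was on the 5′ side of 56 of 60 occurrences. In replicate 3 it kept 622, with 70 of 78 on the 5′ side. The list gave 339 members the same width of 350 bp with the summit in the middle, and their summits may be placed less finely. In these the summit was on the 3′ side of 1 of 34 occurrences, and in the other members of 4 of 36. Occurrences in 1 member are counted separately here, and 4 members had more than 1.

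The bases before the word were also far from even. Bases 7, 6 and 5 before CAGTGTA were T in 84.3%, 87.1% and 80.0% of the 70 occurrences in members. At the 3592 occurrences in all sequence that meets the rule and is long enough for a window, those shares were 47.2%, 45.9% and 43.3%. The base at position 2 before the word was C in 60% of the member occurrences and 23.9% of all. The whole triplet TTT stood there in 44 of 70 occurrences (62.9%), against 18.3% of the 3592.

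A longer pattern was written down with the bases before the word taken from these columns, so its share in the members is a description and carries no test. It asks for TTT, then any 4 bases, then CAGTG, on either strand. It was present at 128 member summits (21.6%, 95% Wilson interval 18.5 to 25.1), in 2.20% of lower flanks, in 3.04% of higher flanks and in 2.13% of the tiled windows. Among the 526 members without CAGTGTA, in which the bases before the word were not read, it was at 82 (15.6%, 12.7 to 18.9). The ending CAGTG, without the closing TA, does not follow from those columns, so this share is no independent check of it. At intronic summits the longer pattern was at 16.2% (14.6 to 18.1) against 2.05% of their lower flanks. Near TSSs the pair of shares was 6.17% and 1.14%. Neither class was used to read the bases before the word. Both were among the peaks in which CAGTGTA was chosen for its ratio of summit to flank. Their shares are thus no independent check of the CAGTG part. In all, 148 members, or 25%, held CAGTGTA or the longer pattern.

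The free positions of the pattern were mostly pyrimidines in the members. Counting from the first T as position 1, position 4 was C in 50% and T in 44.5% of the 146 occurrences in members, and position 6 was C in 56.2% and T in 34.9%. Position 5 was T in 79.5%. After CAGTG the next base was C in 50.7% and T in 44.5%, and the base after that was A in 71.9%. At the 4019 other occurrences in sequence that meets the rule, position 4 was A in 9.41% and G in 13.3%, against 2.05% and 3.42% in members, and the base that is A in 71.9% of members was A in 49.8%. Members held 3.48% of the 4164 occurrences in such sequence, so most copies of the pattern had no summit of the IDR-filtered list beside them between genes.

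The pattern marked a step in base composition. Over the 60 bases before it, A and T made up 68.9% of bases in members, and over the 60 bases after it 52.6%. The side before was the richer in A and T at 135 of 146 occurrences (92.5%). At the other 4019 occurrences the averages were 65.97% and 54.8%, and the side before was the richer at 76.2%. As for CAGTGTA, the summit was on the 5′, A- and T-rich side of the pattern at 141 of 146 occurrences (96.6%, 92.2 to 98.5). The median distance was 60.5 bp, again counting only occurrences inside the window. The low G and C content at the summit was on the same side of the site as the summit, and its part in the summit's place was not tested.

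**Figure D1:**
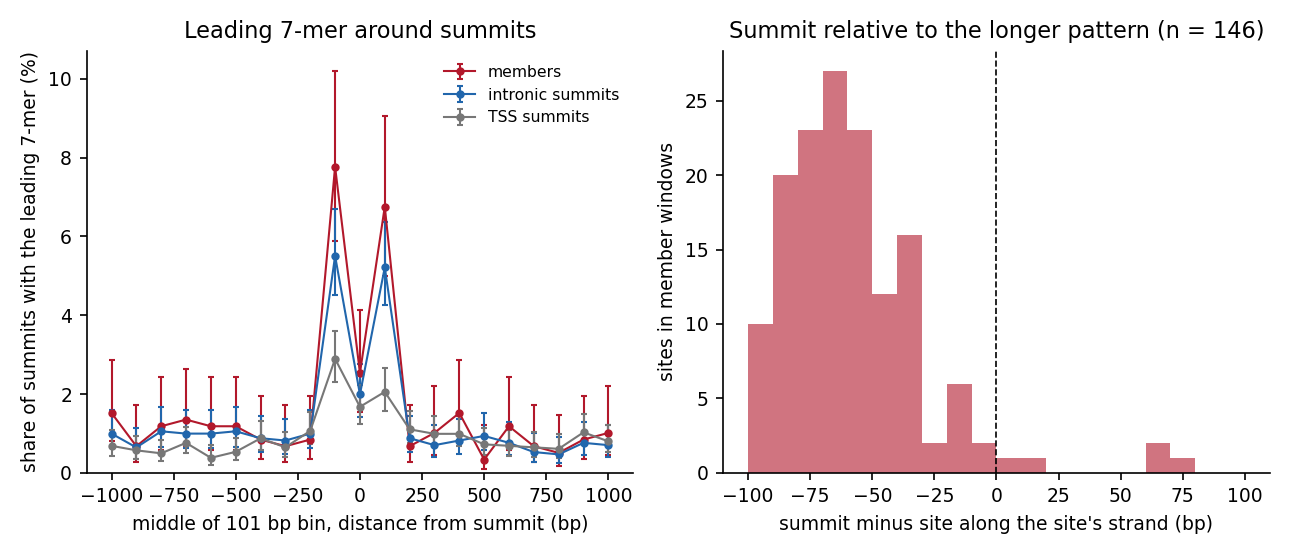
Left, the share of summits with the leading 7-mer in bins of about 100 bp against the distance of the bin from the summit in bp, for members, intronic summits and summits within 500 bp of a TSS, with 95% Wilson intervals; members reach 7.77% and 6.76% in the bins on each side and 2.53% at the summit. Right, a histogram of the summit's position relative to the 146 occurrences of the longer pattern in member windows, in bp along the strand of the pattern; 141 lie at negative values, the 5′ side.

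The share of members with the longer pattern was lowest in the bin nearest to a TSS. It was at 9.63% of the 135 members up to 1000 bp from a TSS (95% Wilson interval 5.71 to 15.8), and at 21.4% (15.2 to 29.2) of the 131 members 1000 to 2000 bp away, with intervals that overlap slightly. Beyond that it was at 25.1%, 29.1% and 27.9% of the members 2000 to 5000 bp, 5000 to 10000 bp and over 10 kb away, shares whose intervals overlap. The difference between bins was not tested. CAGTGTA showed no such order, at 9.63%, 9.16%, 10.6%, 18.6% and 9.84% in the same bins. With the list divided at its median rank by signal, 20.6% of the members among the stronger peaks held the longer pattern and 22.3% of the others. The median signal of members was 193.6 with the longer pattern and 217 without it. CAGTGTA was at 13.2% of the members among the stronger peaks and 9.89% of the others, with overlapping intervals (9.37 to 18.2 and 7.23 to 13.4).

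Between members and intronic summits no sequence passed the threshold. CAGTGTA was at 11.1% of member summits and 9.08% of intronic summits (two-sided Fisher's exact test, adjusted p = 0.387), and 0 of 34 sequences passed the adjusted threshold, while 6 had an unadjusted p under 0.05. The lowest adjusted p was 0.0851, for TGCATA. A comparison with summits within 500 bp of a TSS was added after the data were seen, and there 15 of 34 passed. CAGTGTA was at 4.61% of those summits (Fisher's exact test, adjusted p = 7.22e-08). CGATA, the core bound by the insulator protein BEAF-32, was at 20.3% of member summits and 40.5% of summits near TSSs (Fisher's exact test, adjusted p = 5.66e-20). TATCGATA, the DNA replication-related element bound by Dref, was at 1.01% and 7.81% (Fisher's exact test, adjusted p = 1.63e-11). GGTCACAC, the core of promoter motif 1, was at 0.338% and 3.66% (Fisher's exact test, adjusted p = 3.63e-06). In the members' lower flanks CGATA was at 20.9%.

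The strongest members lay beside genes of many kinds. The peak near sp3 and C15, the latter a homeobox gene, had the highest signal among members, 2930, and ranked 25th in the whole list (3R:21520209-21520522, 548 bp upstream of the TSS of sp3). Its signal was 1456 in replicate 1 and 1475 in replicate 3, on the authors' undefined scale, which ranks peaks within a list. The next lay between Su(z)2, a Polycomb group gene, and CG13323, with a signal of 2367. It was at 923 in replicate 1 and 1436 in replicate 3. A peak upstream of lncRNA:CR45643 (2186), a peak between blw and the cyclin gene CycB (2073) and a peak upstream of CG14762 (1704) followed. Each of these 5 was matched in both replicates and ranked among the strongest 155 peaks of each. Their order in replicate 3 was the same as in the list. In replicate 1 the member near CycB, at 1074, was above the one near CG13323, and that near CG14762, at 839, was above that of lncRNA:CR45643, at 776.

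The next 10 members fell from 1647 to 1176. They lay nearest to CG17896 (X:493847-494231, the member whose sequence heads the stretches above), to lncRNA:CR45695, which had 2 of them, and to jp, which encodes junctophilin. Then came members near DNAlig3, CG4702, CG43245, foxo, the insulin-pathway forkhead gene, Cpr76Ba, which encodes a cuticle protein, and lncRNA:CR44603. Of these 15 strongest members, 14 were matched in both replicate lists. The exception was the peak of signal 1428 between lncRNA:CR44603 and lncRNA:CR45695, which had a counterpart of signal 1134 in replicate 3 and no counterpart at 50% overlap in replicate 1. Of all members, 5 were among the strongest 100 peaks of the list and 33 among the strongest 500 (5.57% of members), against 6.74% of intronic summits and 13.2% of summits near TSSs.

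The members came in clusters as well as alone. Of the 6528 stretches between genes that hold sequence meeting the rule, here called gaps, 468 held a member. In 385 gaps there was 1 member, and 83 gaps held the other 207. The most crowded was the 32964 bp gap between tRNA:Ile-TAT-1-2 and CG13898 on 3L, with 8 members of signals 137 to 1121. The gap of 17787 bp between scyl, an inhibitor of TOR signalling, and lncRNA:CR44720 held 7, all of them in the part nearest scyl. The 75047 bp gap between NijA, which encodes the adhesion protein ninjurin A, and CG43245 held 6. That between lncRNA:CR44363 and CG7560 held 5. Members of 1 gap are neighbours and not independent sites, and 90 members lay within 1 kb of another summit of the list.

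The gap between lncRNA:CR44603 and lncRNA:CR45695 on 2L held 6 members over 20910 bp, 3 of them among the 15 strongest. Their signals were 216, 269, 1176, 460, 1428 and 1459 in order of position. The 4 of these matched in both replicates had replicate 1 signals of 81.9, 409, 102 and 611 and replicate 3 signals of 184, 766, 357 and 888. These 4 had the same order in both libraries. The other members of the gap had values in replicate 3 alone, 182 and 1134, the latter the highest of the gap there. The adjoining gap of 4094 bp, between lncRNA:CR45695 and chinmo, held 4 more, with signals of 244, 477, 272 and 160; it was chosen after its values were seen. The gene chinmo encodes a BTB zinc finger protein that sets temporal identity in neurons. Together the adjoining gaps held 10 members.

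**Figure D2:**
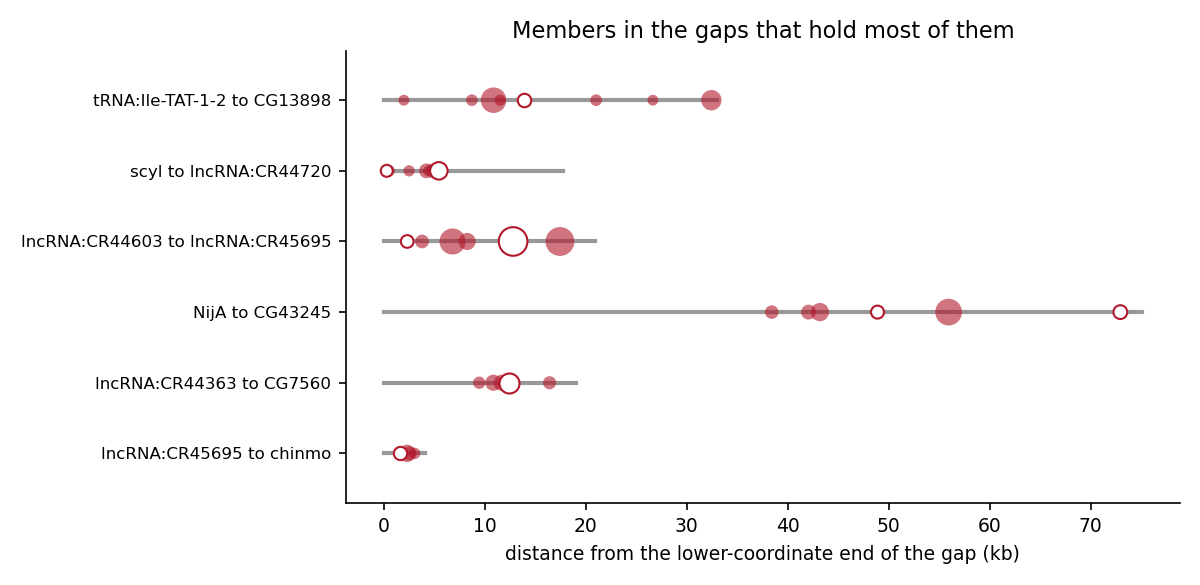
Members in the 5 gaps with most of them and in the gap next to chinmo, against the distance from the lower-coordinate end of each gap in kb (grey line, the length of the gap). Filled circles are members matched in both replicates, open circles are not, and the area grows with the authors' signal; the gap from tRNA:Ile-TAT-1-2 holds 8 members and the gap from lncRNA:CR44603 holds 3 of the 15 strongest.

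Per base, members were concentrated close to TSSs. The sequence that meets the rule came to 36.5 Mb and held 16.2 members per Mb (95% exact Poisson interval 14.95 to 17.6). Up to 1000 bp from a TSS the density was 47.8 per Mb (40.1 to 56.6, 135 members), and it was 28.7 per Mb at 1000 to 2000 bp. It was 19.9 per Mb at 2000 to 5000 bp, 12 per Mb at 5000 to 10000 bp and 4.72 per Mb (3.61 to 6.06, 61 members) beyond 10 kb. Each step exceeded the interval of the next, and the nearest bin was 10.1 times the farthest. Gaps over 50 kb, which made up 26.0% of this sequence, were counted too. Their part in the fall, and how much of the sequence could yield a peak, were not tested. In the strongest peaks of each replicate the nearest bin had 46.4 and 46.0 per Mb and the farthest 4.87 and 4.56 per Mb, in replicates 1 and 3. The 500 bp limit cut through this slope rather than through a gap in it, with 18 intergenic summits in the last 50 bp short of it and 22 in the first 50 bp past it. The 5 members just past the limit had signals of 138 to 1647 and the 5 intergenic summits just short of it had signals of 140 to 326.

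The size and kind of the gap moved with the density. Gaps of up to 5 kb had 41.9 members per Mb of their sequence that meets the rule, and gaps over 50 kb had 1.79 (17 members, 1.04 to 2.87). Gap length and distance from a TSS are linked measures, since only long gaps hold distant sequence. Gaps between divergent genes had 22.5 members per Mb (19.2 to 26.1), tandem gaps 15.9 (14.2 to 17.9) and convergent gaps 14.3 (11.96 to 16.9). Relative to the nearest TSS, 372 members were upstream, at 17.4 per Mb (15.7 to 19.3), and 220 downstream, at 14.5 per Mb (12.7 to 16.6). The nearest TSS was that of a protein-coding gene for 404 members, of an ncRNA gene for 169 and of a tRNA gene for 16.

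Among the arms, 2L had the highest density. All sequence that meets the rule was counted, also that in gaps over 50 kb, which made up 26.0% of it. The part of such gaps in the differences between arms was not tested. Arm 2L had 22.5 members per Mb (19.0 to 26.4, 151 members), and 3L, 3R and X had 15.3, 15.9 and 16 per Mb. The interval of X, 12.8 to 19.8, overlapped that of 2L. These intervals treat members as independent, although 207 shared a gap with another member. The lowest density was on 2R, at 12.2 per Mb (9.84 to 15, 91 members). Chromosome 4 had 4 members, at 16.3 per Mb with an interval of 4.44 to 41.8. The excess of 2L over all arms was 1.39 times in the full list and 1.14 times among the stronger peaks. In the replicates' own strongest peaks 2L had 19.96 and 23.8 per Mb and 2R 10.5 and 12.9, the highest and lowest of the 5 large arms in each. The summit of 1 member was in an annotated transposon, and 26 members (4.39%) had most of their window masked as repeats. The share of all sequence meeting the rule that lies in transposons was not measured, so no depletion can be read from this.

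**Figure D3:**
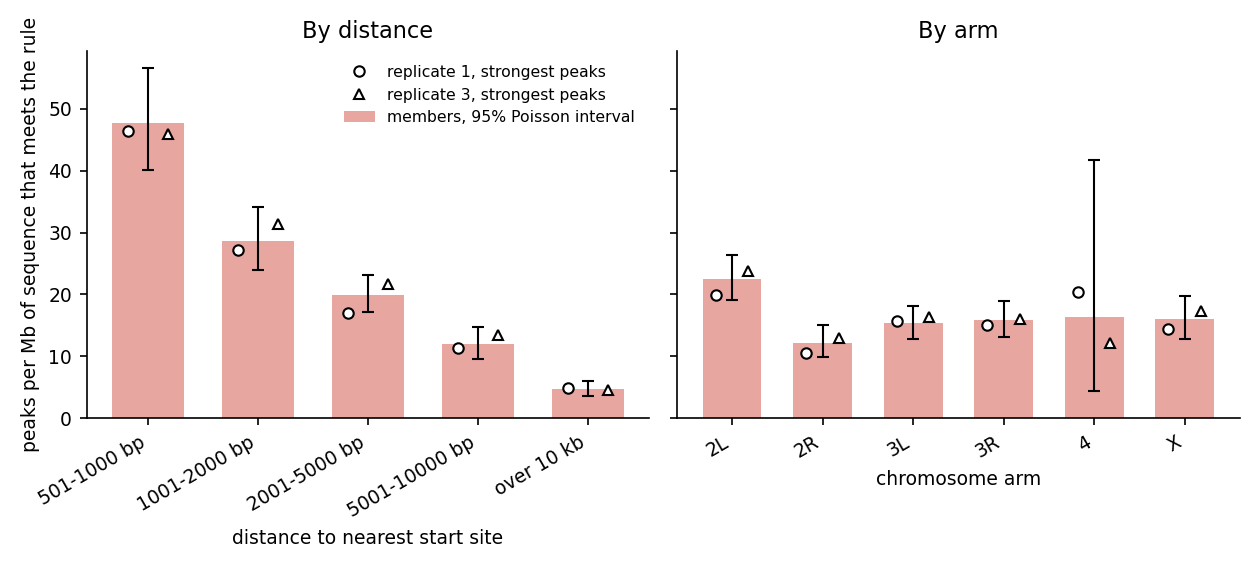
Peaks that meet the rule per Mb of sequence that meets it, by distance to the nearest start site (left) and by arm (right). Bars are members with 95% exact Poisson intervals; circles and triangles are the strongest peaks of replicates 1 and 3. The density falls from 47.8 per Mb up to 1000 bp to 4.72 per Mb beyond 10 kb.

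The farthest members were over 29 kb from any TSS. The gap between NijA and CG43245 held 3 of the 5, at 36638, 32996 and 31878 bp, with signals of 261, 328 and 538, and each was matched in both replicates. A member 29832 bp from Lim1, which encodes a LIM-homeodomain factor, had a signal of 149, with 91.3 in replicate 1 and 46.2 in replicate 3. The member 33883 bp from vvl, a POU-domain gene of trachea and brain, had a signal of 213 and no counterpart at 50% overlap in either replicate. The median member was 2356 bp from a TSS (quartiles 1115 and 4977).

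Gaps beside most of the gene lists examined had densities whose intervals hold the average over all gaps, chemoreceptor genes being the exception. The lists were named with earlier results of these data known, and a member counts for a list if a gene on either side of its gap belongs to it. Gaps beside developmental transcription factor genes held 35 members in 29 of 175 gaps, at 19.2 per Mb (13.4 to 26.7, against 16.2 over all). Those beside genes of signalling ligands and receptors held 12, at 28.6 per Mb (14.8 to 49.9), and those beside neuronal surface genes held 8, at 12.7 per Mb (5.49 to 25). Cuticle protein genes had 6, at 23.9 per Mb (8.77 to 52.0), and ribosomal protein genes 4, at 8.55 per Mb (2.33 to 21.9). Chemoreceptor genes, which encode odour and taste receptors, had 4, at 4.48 per Mb (1.22 to 11.5), the only list whose interval lay below the average. Hox genes had 0 members in 0.0546 Mb, where 0 allows up to 67.6 per Mb.

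The strongest members of each list were as follows. Beside developmental factor genes, the member near sp3 and C15 was followed by one between slp1 and slp2, the forkhead pair-rule genes, with a signal of 871 (377 in replicate 1 and 487 in replicate 3). The next was 1318 bp from bin, the forkhead gene of the visceral mesoderm, at 522. For signalling genes they were near ptc, the Hedgehog receptor gene (551), fz, a Wnt receptor gene (495, unmatched in replicate 1), and between Wnt4 and wg (478). They lay 5269, 1754 and 4446 bp from the nearest TSS. For neuronal surface genes they lay beside bdl (467), between CadN and CadN2, neural cadherin genes (334), and beside klg (326). The chemoreceptor members were led by one beside Gr89a (551), which held CAGTGTA. The cuticle list was led by Cpr76Ba (1218), whose next member was at 209. The ribosomal list was led by a member beside RpS23, at 309.

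Compared with other peaks, members were weaker than those at start sites. Their median signal was 213 (quartiles 159 and 333), that of intronic summits was 225 and that of summits near TSSs was 287. Of the members, 228 (38.5%, 95% Wilson interval 34.7 to 42.5) were among the stronger peaks of the list, above its median rank, against 50% of all peaks by construction. The share was 57.3% near TSSs (two-sided Fisher's exact test, adjusted over 4 tests, p = 5.43e-16). It was 43.0% among intronic summits, a difference of −4.49 points (Fisher's exact test, adjusted p = 0.0594). These tests count peaks from 2 libraries, not embryos, so they describe this list.

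Recovery in both replicates depended on how a match was defined. At an overlap of at least 50% of both peaks, 446 members (75.3%, 71.7 to 78.6) had a counterpart in each replicate's list of 30000, against 79.2% of all peaks, 79.3% of intronic summits (Fisher's exact test, adjusted p = 0.0594) and 79.8% of summits near TSSs (adjusted p = 0.0378). With summits within 100 bp counted as a match the shares were 96.8%, 95.5% and 95.6%, and with any overlap 99.0%, 98.7% and 98.2%, so the order against start sites turned and neither difference passed the threshold. The other way, the difference from summits near TSSs, −4.48 points, was −11.0 among the stronger peaks and −13.3 where both counterparts had to be among the strongest peaks of their replicate (Fisher's exact tests, adjusted p = 0.00136 and 8.27e-09). Without replicate 1 it was −0.459 (Fisher's exact test, adjusted p = 0.793). Peak width moved with the first measure. Of the 339 members (57.3%) with the common width of 350 bp, 93.5% met the 50% overlap. The other 253 had a median width of 181 bp and a higher median signal, 351 against 167, and 51.0% met it, yet 99.2% of them had summits within 100 bp in both replicates. Since the IDR-filtered list was itself derived from the replicate lists, a high recovery was partly built into it.

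**Figure D4:**
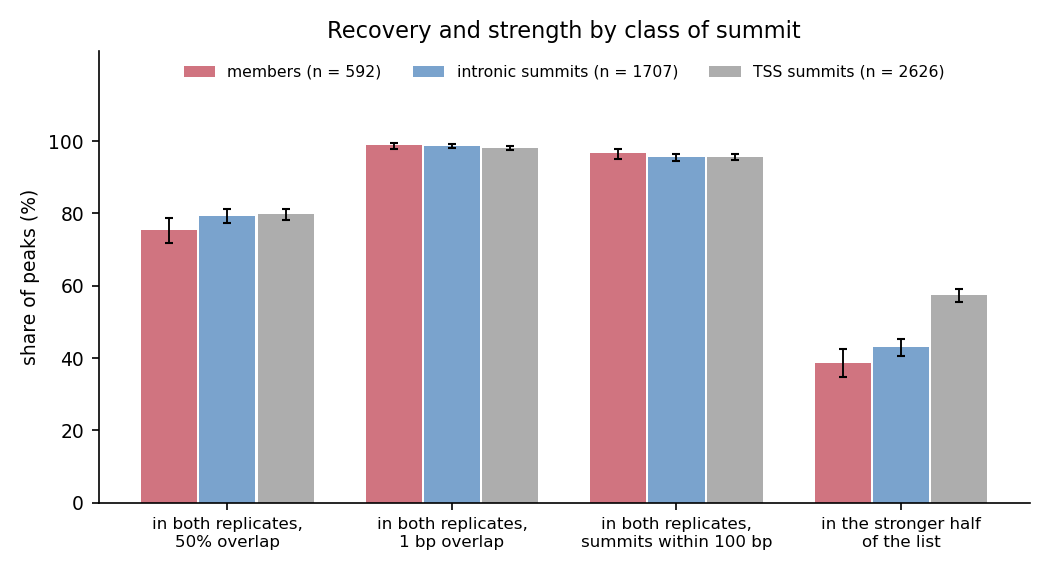
Share of members, intronic summits and summits within 500 bp of a TSS (in %) that have a counterpart in both replicates under 3 definitions of a match, and share among the stronger peaks, with 95% Wilson intervals. Members are lowest at 50% overlap, at 75.3%, and all classes exceed 95% under the other definitions; 38.5% of members are among the stronger peaks.

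Within the members, the replicates ranked peaks alike but loosely. At 50% overlap 508 members were matched in replicate 1 and 507 in replicate 3, with 62 only in the first, 61 only in the other and 23 in neither. Among the 446 matched in both, Spearman's rho between the replicates' signals was 0.583, and it was 0.639 for intronic summits and 0.811 for summits near TSSs. These correlations are across peaks of the same libraries, chosen in part for agreement, and are given as a description. In 293 members (49.5%) both counterparts were among the strongest peaks of their replicate, against 56.8% of all peaks. Singly, 66.0% were so in replicate 1 and 77.9% in replicate 3. The rule kept 11.0% of the strongest peaks of replicate 1 and 12.3% of those of replicate 3.

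**Figure D5:**
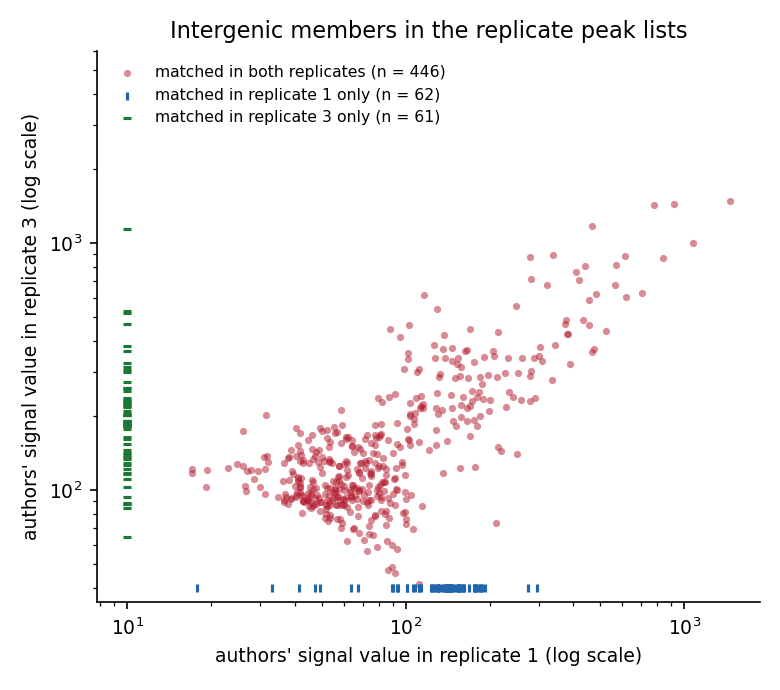
Authors' signal of each member's counterpart in replicate 1 (x axis, log scale) and in replicate 3 (y axis, log scale), for the 446 members matched in both lists at 50% overlap. Ticks along the left and lower edges are the 61 and 62 members matched in only 1 list, placed at an arbitrary position; the strongest member is at 1456 and 1475.

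Few members had a bound start site as their nearest TSS. The nearest TSS had another summit of the list within 500 bp for 94 members (15.9%, 13.2 to 19.0), against 21.2% of all 2412 summits outside start sites and 23% (21.1 to 25.1) of intronic summits. Other summits were nevertheless close to many members, with 277 (46.8%) within 5 kb of another summit of any class. Members with and without CAGTGTA were also set side by side. The median signal was 234 in the 66 members with it and 212 in the others, and the median distance to a TSS 2901 and 2284 bp. At 50% overlap 66.7% of those with the word and 76.4% of those without were recovered in both replicates.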

How the data were processed

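The authors deposited peak lists on release 6 (dm6): 30000 peaks for each replicate, 30000 for both together and 5038 filtered by IDR, per the deposited notes derived from alignments and a control. The signal value of each peak, as deposited by the authors, has no stated scale and only ranked peaks within a list. The −log10 q values that the authors deposited for the IDR-filtered peaks (2.45 to 3.81) were not used further. The peak caller is not given in the sources used here. With peaks alone the depth is unknown, and no control library was analysed here.

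Genes came from Ensembl release 115 (18164 without transposable elements, 23581 TSS positions) and sequence from RefSeq. Windows of 201 bp were compared with flanks 600 bp away by exact sign tests, and classes by two-sided Fisher's exact tests, with Benjamini-Hochberg adjustment and a threshold of 0.05. Intervals are 95% Wilson or exact Poisson intervals and cover counting error only. Python 3.11.15, numpy 2.4.6, pandas 2.3.3, scipy 1.17.1 and matplotlib 3.10.9 were used, and the tests were tried on simulated data. The members, lists, motifs (24) and the rule for named sites were chosen with earlier results of these data known. Named sites were the 15 strongest members, the 5 farthest, the 5 fullest gaps, 5 summits on each side of the limit, up to 3 members a gene list and 10 7-mers. The longer pattern, the widths, the strand offsets and the comparison of sequences with summits near TSSs were added after the data were seen. Alternatives were other TSS limits, coding genes only, the stronger 2519 peaks, other matches, windows and flanks, and leaving out a replicate, when the rule was applied to the other's 5038 strongest. The narrower and wider windows were 101 and 401 bp, and profile bins 101 bp. Sequence from some arms is not printed.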

Additional observations from a re-analysis of the deposited data

How the results depend on the processing

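No paired analysis was possible because there was 1 group. The stronger peaks, above the median rank of the list, left 228 members, and without 1 replicate there were 552 to 622. In points, the recovery of members minus intronic summits was −4.11 at a TSS limit of 250 bp, −4.52 with coding genes only and −8.17 among the stronger peaks, each then past the threshold; it was −4.05 without replicate 1, also past it, and 0.574 without replicate 3, not past it. Minus summits near TSSs it was −3.68 at a limit of 1000 bp, no longer past the threshold, reversed to 0.814 at 1 bp overlap and 1.17 for summits within 100 bp, and grew to −11.0 among the stronger peaks and −13.3 with the strongest peaks of each replicate. It was −3.79 without replicate 3, past the threshold, and −0.459 without replicate 1, not past it. The share among stronger peaks minus intronic summits was −5.34 to −4.86 without 1 replicate, past the threshold in both.

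Against flanks, 2 sequences were more frequent at summits in the narrower windows and 1 among the stronger peaks (5 in the report), and 1 and 3 were less frequent in the narrower windows and with flanks at 1000 bp (0 in the report). CAGTGTA lost its call in the narrower windows, which end before most occurrences, with a difference of 1.35 points. Against summits near TSSs, 1, 8 and 2 sequences were more frequent in members in the narrower windows, in the wider windows and among the stronger peaks (4 in the report), and 4 to 7 without 1 replicate. The ratio of densities between the nearest and farthest bin was 10.9 among the stronger peaks and 9.52 to 10.1 without 1 replicate; for 2L it was 1.14, and 1.32 to 1.40. The cause of these shifts was not tested. TGCATA missed the threshold in the narrower and the wider windows, with the other flank, at a limit of 1000 bp and among the stronger peaks. With peaks alone, the reads behind a weak peak could not be examined.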

Other observations

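When 7-mers were ranked on the members themselves, a ranking that carries no test, CAGTGTA was again first, at 11.1% of summits and 1.60% of flanks. Many of the next 24 were shifted copies or 1-base variants of it on either strand, among them ACACTGA, at 9.12% and 1.94%, and AGTGTAC, at 7.60% and 1.52%. Of words not of this kind, CCATCTA was at 4.90% of summits and 0.845% of flanks, and AGATGGC at 6.25% and 1.35%. Read on the other strand, CCATCTA is TAGATGG, a shifted copy of AGATGGC, and AGATGGC ends in the GGC that begins GGCGCCA. These words may be parts of the same sequence, and how often they lie together was not measured. GGCGCCA, the palindrome-like word in the strongest member, was at 4.05% and 0.845%, at 1.70% of intronic summits and at 2.89% of summits near TSSs. CAGTGCA, which differs from CAGTGTA in 1 base, was at 13.5% and 3.38%, and at 9.55% of intronic summits. CACTGAG, whose reverse complement begins inside the longer pattern, was at 9.63% and 2.11%.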
